A study of Homo sapiens with 32 samples.

Results

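The HOXB genes are one of the 4 human HOX clusters, and the 8 members described here, HOXB2, HOXB3, HOXB4, HOXB5, HOXB6, HOXB7, HOXB8 and HOXB9, lie side by side on chromosome 17. Members were found by symbol: 15 probe sets carried one of these names as their single gene symbol, and for each gene the probe set with the highest mean over all arrays was used. They are 8 of 19775 genes with such a probe set, and all 8 were among the 15455 genes bright enough to be tested. Levels are log2(signal + 16), where signal is the deposited intensity of a probe set.

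The samples were 32 established cell lines grown from human acute myeloid leukaemia (AML), untreated, with total RNA on 1 Affymetrix expression array per line. Of 4 lines with an added cytokine, OCI-AML2, OCI-AML3 and OCI-AML5 received GM-CSF or SCF in alpha-MEM medium, and F-36P received 5 ng/ml IL-3 in RPMI 1640. The other 21 lines in RPMI 1640, and 4 lines in IMDM (SH-2, SHI-1, OCI-M2 and OCI-M1), had no cytokine named, and no medium is stated for MOLM-13, MOLM-16 and MV4-11. All media named contained fetal bovine serum. Each line comes from a single patient and has adapted to culture, and the study set out to relate its expression to the response to PIM kinase inhibitors, a response not used here. HL-60 with PLB-985, and KG-1 with KG-1A, are sublines of one donor each and were averaged, which left 30 units for slopes and correlations.

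HOX genes encode homeodomain transcription factors that give cells positional identity in the embryo, and they are switched on in order along each cluster. In blood formation, HOXB genes near the HOXB2 end, above all HOXB3 and HOXB4, are known from stem and progenitor cells and are turned down as cells mature. HOX proteins bind DNA together with cofactors of the TALE class, among them MEIS1 and the PBX proteins, and the cluster also carries antisense RNAs and the microRNA gene MIR10A.

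The sequences of MIR10A and HOXB-AS1 are shown because their array signals are set beside those of the members. The MIR10A signal went about equally with most members. That of HOXB-AS1 went most with HOXB2 on the dimmer of its probe sets, and about equally with HOXB2 and HOXB3 on the brighter. MIR10A lies between HOXB4 and HOXB5, within the span that RefSeq gives for HOXB3, and makes these mature microRNAs (RefSeq, GRCh38.p14, chr17:48579904-48579926 and chr17:48579864-48579885, minus strand), printed 5′ to 3′ with the seed, bases 2 to 8, in capitals. The seeds of the 2 arms differ.
hsa-miR-10a-5p: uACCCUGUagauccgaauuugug
hsa-miR-10a-3p: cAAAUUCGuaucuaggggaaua
HOXB-AS1 overlaps HOXB2 and HOXB3, and its start lies in this window, from 250 bases before to 50 after (RefSeq, GRCh38.p14, chr17:48544101-48544400, plus strand), in which CG dinucleotides are in capitals.
HOXB-AS1 promoter: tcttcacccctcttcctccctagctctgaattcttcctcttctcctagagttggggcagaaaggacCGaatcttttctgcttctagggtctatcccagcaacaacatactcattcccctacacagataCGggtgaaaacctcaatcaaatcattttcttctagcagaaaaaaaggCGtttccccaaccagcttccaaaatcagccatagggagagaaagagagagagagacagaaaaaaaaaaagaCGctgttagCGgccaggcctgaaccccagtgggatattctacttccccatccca
The window held 5 CG dinucleotides, against a median of 14 (quartiles 4 and 28) over 35116 RefSeq promoter windows of the same length. The letters TGATNNAT, a form of the joint HOX and PBX motif, were not in this window on either strand and were in 7.4% of all such windows.

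Arrays were of unequal quality in ways no label gives. Median signal was 68.2 to 115.4 on 30 arrays, but 198.4 on NOMO-1 and 243.3 on GF-D8, so dim probe sets read higher on those 2. GAPDH signal at the 3′ end exceeded that at the 5′ end by over 2 times, a mark of degraded RNA, on the arrays of NOMO-1, GF-D8, THP-1, NB-4, MOLM-13, ML-2, HL-60 and GDM-1. HOXB5 was the member that went most with the array median (r = 0.67 over 30 units), while r was 0.10 to 0.34 for the other 7. Of 7 leukocyte markers with a probe set, 6 or 7 lay above the array median in every line. Of 11 epithelial and stromal markers, 3 to 7 did so, and their part in the results was not tested.

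With 1 array per line, a single level carries no error, and the subline pairs serve as a yardstick. Between PLB-985 and HL-60 the median absolute difference of the 8 members was 0.62 and the largest 1.17, for HOXB8. Between KG-1A and KG-1 the median was 0.37 and the largest 0.81, for HOXB6. Neighbours in the order of levels that differ by less than about this much are not told apart here. The yardstick is rough, since the GAPDH ratio was 7.082 on the HL-60 array and 0.933 on that of PLB-985. It also rests mostly on dim levels, as no member reached 4 times the array median in HL-60 or PLB-985. In KG-1 and KG-1A only HOXB2 did, so the error of other bright levels was not measured. Probe sets of different genes differ in brightness, so each gene is compared across lines and not with other genes.

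HOXB2, at the end of the 8 members nearest HOXB1, split the lines into a high and a low set. It ranged over 230.6-fold, with the lowest log2 level, 4.64, in ML-2, a median of 7.55 and the highest, 12.49, in ME-1. Next to ME-1 stood KMOE-2 at 12.13, a difference within the subline yardstick. Exactly 16 lines lay below 7 and 16 at or above 8.23, the level of OCI-M2, with nothing between NOMO-1 at 6.87 and OCI-M2. Both KG-1, at 11.09, and KG-1A, at 10.74, were in the high set.

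HOXB3, whose product is known from stem cell self-renewal, was high in most lines. Its log2 level ran from 4.29 in MOLM-13 through a median of 10.03 to 12.67 in KMOE-2, a 331.4-fold range, with FKH-1 next at 12.28 and GF-D8 at 11.96. The widest gap, 1.79, lay between KG-1 at 7.02 and MV4-11 at 8.81, with 22 lines above it. The 10 lines below it were HL-60, PLB-985, EOL-1, KASUMI-1, OCI-AML2, MOLM-13, NB-4, SH-2, KG-1 and KG-1A.

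HOXB4, used in the laboratory to expand blood stem cells, had a flatter top. Its lowest log2 level was 4.88 in KG-1, its median 9.04 and its highest 10.45 in MO7E, a 47.4-fold range. ME-1 at 10.34 and OCI-M1 at 10.27 were as high as MO7E within the yardstick. A gap of 1.07 separated NOMO-1 at 7.54 from SKM-1 at 8.61, and 20 lines lay above it.

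HOXB5, a marker gene of long-term stem cells in the mouse, had the narrowest range of signal. Its log2 level was 6.25 in PL-21 at the lowest, 7.29 at the median and 9.71 in KMOE-2 at the highest, an 11-fold range. FKH-1 at 9.62, GF-D8 at 9.60, NOMO-1 at 9.56 and ME-1 at 9.33 made up the top with KMOE-2, above GDM-1 at 8.41. Of these, GF-D8 and NOMO-1 are the arrays of high median signal, and relative to the own array HOXB5 stood 1.58 and 1.81 above the median there, against 3.14 in KMOE-2, 2.60 in ME-1 and 2.58 in FKH-1.

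HOXB6, known from erythroid and early myeloid precursors, ran from 4.20 in KG-1A through a median of 6.10 to 11.30 in KMOE-2, a 136.8-fold range. FKH-1 at 11.06, HNT-34 at 10.60 and HEL at 9.86 followed. Levels fell off with no gap above 0.76.

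HOXB7, a homeobox gene often raised in cancers, had its lowest log2 level, 5.60, in SKM-1, a median of 7.11 and its highest, 10.67, in KMOE-2, a 33.5-fold range. Only 5 lines lay above a gap of 1.45: KMOE-2, OCI-M1 at 10.39, FKH-1 at 10.31, SHI-1 at 10.17 and HEL at 10.07. The span of the 5 was 0.60, somewhat more than either subline pair differed for HOXB7. Its level was 6.51 in HL-60 and 5.99 in PLB-985, and 6.45 in KG-1 and 6.68 in KG-1A. MOLM-16 at 8.62 came next after the 5.

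HOXB8, which blocks myeloid maturation when forced on in mouse progenitors, had the widest gap of the 8. FKH-1 at 11.49 and KMOE-2 at 10.35 stood 2.52 or more above OCI-M1 at 7.83, the next line. The median was 5.62 and the lowest level 4.09, in EOL-1, for a 168.7-fold range. FKH-1 and KMOE-2 differed by 1.14, about as much as HL-60 and PLB-985 did for this gene, at 6.45 and 5.28. KG-1 and KG-1A, at 5.32 and 5.92, differed by less.

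HOXB9, at the far end of the 8 members, was high in 3 lines, KMOE-2 at 12.34, FKH-1 at 11.90 and OCI-M1 at 11.85. HEL at 10.11, OCI-M2 at 9.56 and SHI-1 at 9.46 followed below a gap of 1.75. The median was 6.94 and the lowest level 5.76, in SKM-1, a 95.6-fold range.

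Read line by line, the members that stood at least 4-fold above the median of the own array, a threshold chosen after seeing the data, formed a few patterns. In 8 lines no member did, namely HL-60, PLB-985, EOL-1, KASUMI-1, OCI-AML2, MOLM-13, NB-4 and SH-2. In 5 lines (GF-D8, ML-2, MO7E, SKM-1 and PL-21) HOXB3 and HOXB4 did with no other member, and in 3 (SET2, F-36P and GDM-1) HOXB2 joined them. HNT-34 and OCI-AML3 had HOXB2, HOXB3, HOXB4 and HOXB6 above the threshold. The place of GF-D8 and NOMO-1 depends on the high median of their arrays. HOXB2 was 9.68 in GF-D8, above GDM-1 at 9.53, yet lay only 1.66 above the array median. HOXB5 was 9.56 in NOMO-1, above ME-1 at 9.33, yet lay only 1.81 above the array median.

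On the probe sets used, lines over 4-fold at the HOXB9 end were also over it for HOXB3 and HOXB4. KMOE-2 and FKH-1 had all 8 members over 4-fold, HEL and SHI-1 had HOXB2, HOXB3, HOXB4, HOXB6, HOXB7 and HOXB9, and OCI-M1 the same without HOXB6. ME-1 had HOXB2 to HOXB5, and its HOXB7 and HOXB8 lay 1.05 and 1.51 below the array median. Some calls were near ties at the threshold, a log2 difference of 2, and are not told apart within the subline yardstick. HOXB6 lay 1.97 above the array median in OCI-M1 and 1.95 in ME-1, just under the threshold. HOXB7 in MOLM-16 (2.03) and MV4-11 (2.05) and HOXB4 in GF-D8 (2.07) lay just over the threshold. Every line over the threshold for HOXB5, HOXB6, HOXB7, HOXB8 or HOXB9 (3, 7, 7, 2 and 6 lines) was also over it for HOXB3 and HOXB4. All 20 HOXB4 lines were among the 22 HOXB3 lines, so they were 100% of the first and 90.9% of the second. HOXB2 did not nest in this way, since KG-1 and KG-1A passed for HOXB2 alone and 10 of the 22 HOXB3 lines did not pass for HOXB2. NOMO-1 and THP-1 passed for HOXB3 alone. These patterns rest on the probe set used for each gene: on the other probe set of HOXB3, 0 lines reached 4-fold. They also set genes side by side at 1 threshold, although probe sets differ in brightness. Of the 8 probe sets used, that of HOXB3 had the highest mean log2 level, 9.09, and that of HOXB4 the next, 8.21. Smaller sets of lines can fall within sets as large as theirs without a link between the genes, and this was not tested.

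**Figure D1:**
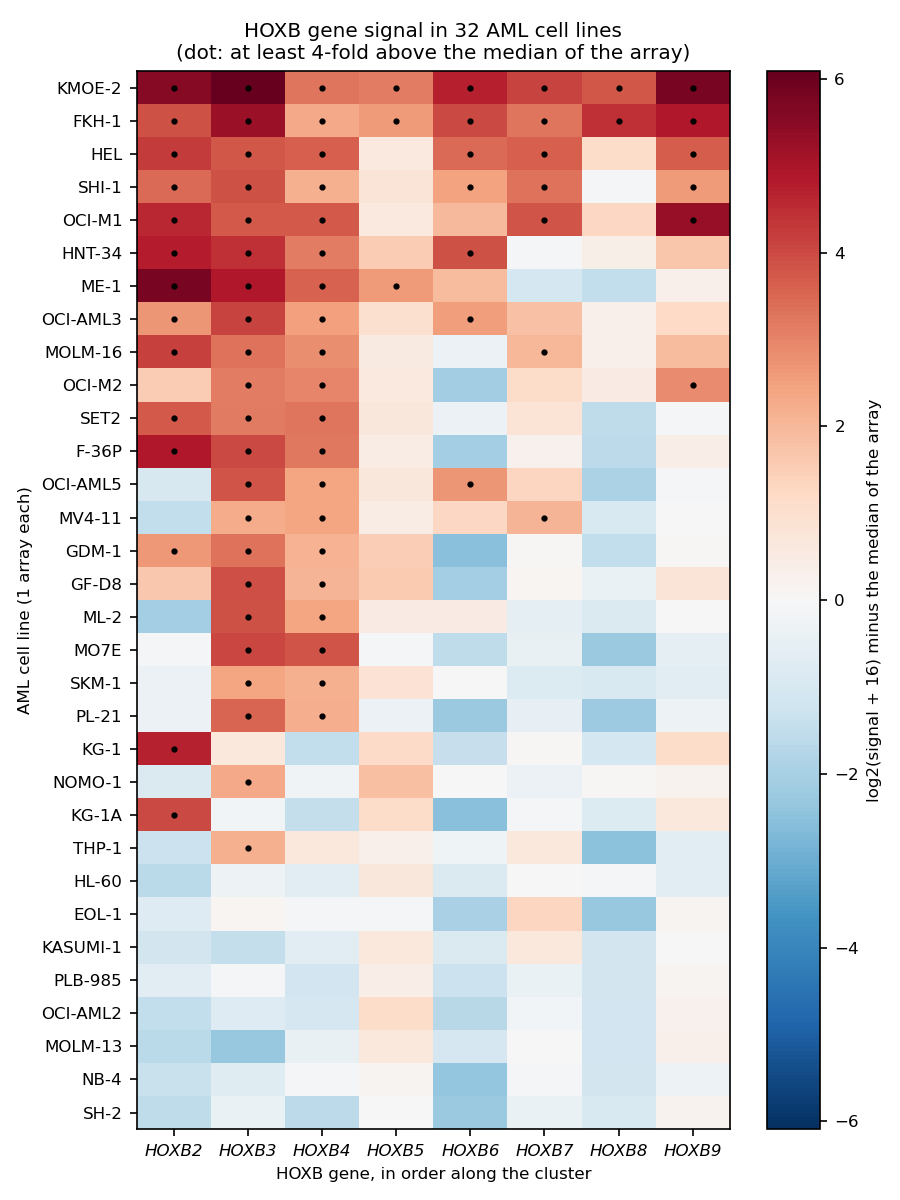
Colour gives log2(signal + 16) minus the median of the same array, for 8 HOXB genes (columns, in order along the cluster) in 32 AML cell lines (rows, 1 array each, sorted by the number of genes at least 4-fold above that median); a dot marks such a gene. KMOE-2 and FKH-1 have dots in all 8 columns, HOXB3 has dots in 22 lines and HOXB8 in 2, and the 8 lines at the bottom have none.

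Members varied together, and HOXB3 with HOXB4 and HOXB8 with HOXB9 most of all. Over 30 units Pearson's r was 0.89 for both pairs (Spearman's rho 0.77 and 0.78), and 0.84 for HOXB7 with HOXB9. The lowest value, 0.28, was that of the neighbours HOXB4 and HOXB5. Over the 28 pairs the median was 0.52, and without KMOE-2 and FKH-1 it was 0.43. Without these 2 lines HOXB3 with HOXB4 stayed at 0.90 and HOXB8 with HOXB9 at 0.83, while HOXB5 with HOXB7 went to -0.01, against 0.29 with them.

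Distance in the cluster did not order the correlations. The median r was 0.65 for the 7 pairs 1 step apart and 0.45 for the 4 pairs 4 steps apart, but 0.65 for HOXB2 with HOXB9, at opposite ends. Genome-wide, 15380 pairs of neighbouring tested genes had a median r of 0.18 (quartiles -0.05 and 0.39). All of these values are descriptions, since the pairs share the same arrays and some share cell lines of high signal.

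**Figure D2:**
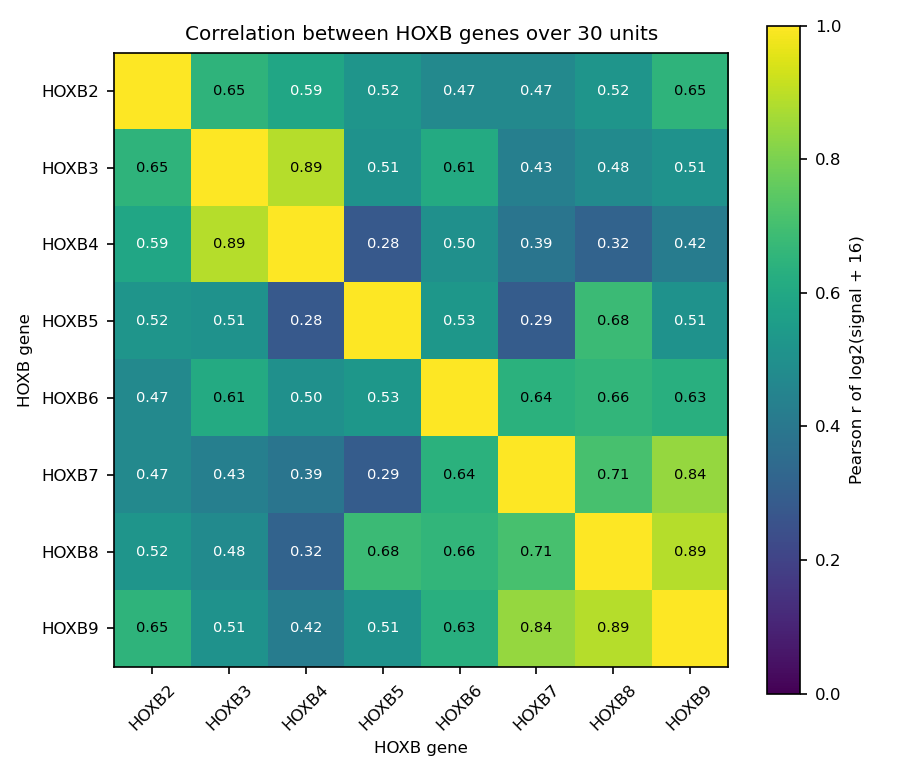
Each cell gives Pearson's r of log2(signal + 16) over 30 units (32 lines, with 2 pairs of sublines averaged) for 2 HOXB genes, in cluster order on both axes. HOXB3 with HOXB4 and HOXB8 with HOXB9 reach 0.89, and HOXB4 with HOXB5 is lowest at 0.28.

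Genes flanking the cluster went less with the members than most members did with one another, whose median r was 0.52. The medians of LINC02086 and SKAP1, 0.30 and 0.29, were near the lowest r between 2 members, 0.28. The 5 nearest tested genes on the HOXB2 side (LOC101927166, SKAP1, SNX11, CBX1 and NFE2L1) and on the HOXB9 side (LINC02086, PRAC1, CALCOCO2, ATP5MC1 and UBE2Z) had median r with the 8 members between -0.19, for ATP5MC1, and 0.30, for LINC02086. LINC02086 and LOC101927166 came closest for a single member, with r of 0.61 and 0.56 with HOXB5, the gene that goes with array brightness.

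HOXB1 and HOXB13, the outer genes of the cluster, were low. HOXB13, known from prostate, lay above the array median in 0 lines on the brighter of its 2 probe sets, with a highest level of 6.27 in GF-D8. On the other it did so in 1 line, KMOE-2, at 7.04, which is 0.47 above the array median. HOXB1, a hindbrain gene, did so in 7 lines, with its highest levels, 9.19 and 8.56, on the bright arrays GF-D8 and NOMO-1. Its r with the members was -0.02 to 0.36.

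Of the non-coding transcripts of the cluster, HOXB-AS1 went with a gene it overlaps. It had 2 probe sets, with r of 0.82 and 0.63 with HOXB2. The first is the dimmer on average, and its r was 0.59 with HOXB3 and 0.60 with HOXB4. The second did not single out HOXB2, with r of 0.62 with HOXB3 and 0.56 with both HOXB4 and HOXB5. On the first, its log2 level was 10.80 in GF-D8, 9.47 in ME-1 and 8.85 in HNT-34, and 4.46 in EOL-1, the lowest. KMOE-2, with HOXB2 at 12.13, had HOXB-AS1 at only 6.43. MO7E, with HOXB2 at 6.49, had HOXB-AS1 at 8.07, so on this probe set the transcripts parted in both lines. On the second probe set these 2 lines, at 7.14 and 7.32, were both near its median of 7.07. On the second probe set GF-D8, at 11.74, stood 3.21 above MOLM-16 at 8.53. HOXB-AS1 lies over HOXB2 and HOXB3, and the strand of the probes was not checked, so part of its signal could come from them.

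HOXB-AS3, which overlaps HOXB5 and HOXB6, has 5 probe sets. On the one with the highest mean it was highest in OCI-AML3 at 9.35 and FKH-1 at 9.29, then GF-D8 at 8.76, and its r was highest with HOXB8, at 0.65, and 0.63 and 0.44 with HOXB5 and HOXB6. On 3 of the others KMOE-2, not the bright array GF-D8, came next after these lines, and on one of these the level reached 10.33 in OCI-AML3 and r with HOXB8 was 0.76. The MIR10A probe set (arrays of this kind read polyadenylated transcripts, not the mature microRNAs printed above) was highest in KMOE-2 at 9.70, FKH-1 at 8.56 and OCI-AML3 at 8.45. Its r with the 8 members was 0.45 to 0.68.

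**Figure D3:**
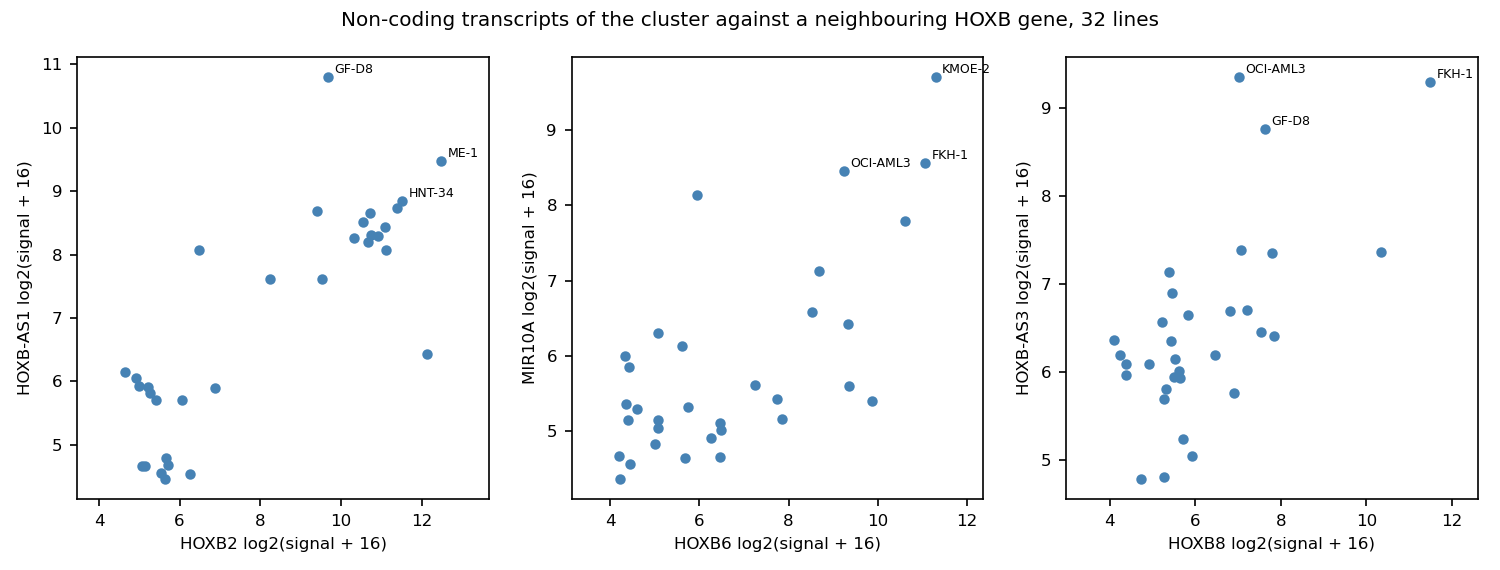
Levels, as log2(signal + 16), of 3 non-coding transcripts (vertical axes) against a HOXB gene (horizontal axes) in 32 AML lines, 1 point per line, with the 3 highest lines named. HOXB-AS1 is shown on the dimmer of its probe sets, and HOXB-AS3 on its brightest. HOXB-AS1 goes with HOXB2, but KMOE-2 is at 12.13 for HOXB2 and 6.43 for HOXB-AS1 and MO7E at 6.49 and 8.07. The highest HOXB-AS3 level, 9.35, is in OCI-AML3.

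HOXB2 and HOXB4 rose with the erythroid score, the mean centred level of red cell genes such as GATA1, KLF1 and the globins. The question was whether the members follow lineage. Of 13 megakaryocyte genes tested, 8 rose with this score too, so it cannot tell the red cell lineage from the megakaryocyte lineage. The limma slope, in log2 per unit of score, was 0.96 ± 0.23 for HOXB2 (SE, adjusted p = 0.00522) and 0.63 ± 0.15 for HOXB4 (adjusted p = 0.00485), so 2 of 8 members passed, where 10.3% of all 15439 genes tested did. All 8 slopes were positive, as were 49.3% of those of all genes tested, and the median was 0.40 against 0. The members vary together, so 8 like signs are not 8 separate observations, here or below. HOXB9, at 0.47 ± 0.17 (limma adjusted p = 0.0878), HOXB3, at 0.56 ± 0.22 (0.102), and HOXB7, at 0.33 ± 0.15 (0.177), did not pass, and HOXB5 had a slope of 0.04 ± 0.11. HOXB9 passed without FKH-1 (limma adjusted p = 0.044) or without SET2 (0.034). On the other probe set of each gene the slope was lower, 0.17 for HOXB9 (limma adjusted p = 0.508) and 0.08 for HOXB3 (0.664).

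The 6 lines with scores above 2 were SET2, OCI-M2, HEL, MOLM-16, F-36P and OCI-M1, and GF-D8 was next at 0.93. HOXB4 was 10.09, 9.68, 10.05, 9.44, 9.68 and 10.27 in them, in that order. HOXB2 was 10.55, 8.23, 10.67, 10.73, 11.39 and 11.12. All 6 were thus on the high side for both genes, but so were lines of low score such as SHI-1, with HOXB2 at 10.31 and a score of -1.19. Without these 6 units the limma slopes were 2.12 ± 0.58 for HOXB2 and 1.5 ± 0.38 for HOXB4 (adjusted p = 0.0206 and 0.0145). HOXB3 and HOXB5 passed too, but all genes passing were then 2314, against 1596 with the 6 units kept. The units left included the bright arrays GF-D8 and NOMO-1, with scores of 0.93 and 0.14, and their part was not tested. Among the 23 units on arrays of GAPDH ratio up to 2, the slopes were 0.81 ± 0.26 and 0.61 ± 0.17 (limma adjusted p = 0.0438 and 0.0228). The arrays of high ratio hold none of the 6 lines and were not fitted by themselves.

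HOXB2 and HOXB5 rose with the stem and progenitor score, made in the same way from genes such as CD34, KIT and MECOM. The limma slope was 1.36 ± 0.31 for HOXB2 (adjusted p = 0.0111) and 0.50 ± 0.12 for HOXB5 (adjusted p = 0.0207), 2 of 8 members where 2.6% of 15441 genes passed. All 8 slopes were positive, where 56.6% of those of all genes tested were, and the median was 0.49 against 0.03. HOXB3, at 0.77 ± 0.30, did not pass (adjusted p = 0.175), nor did HOXB4, at 0.48 ± 0.24 (0.357).

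Scores above 2 belonged to 4 lines, GDM-1, HNT-34, ME-1 and FKH-1. HOXB2 was 9.53, 11.52, 12.49 and 10.91 in them, and HOXB5 was 8.41, 8.28, 9.33 and 9.62. Without these 4 the limma slopes were 1.84 ± 0.57 and 0.53 ± 0.23 (adjusted p = 0.0915 and 0.253), so neither passed. HOXB5 did not pass without ME-1 (adjusted p = 0.0564) or without FKH-1 (0.072), nor with the arrays centred on their medians (slope 0.38 ± 0.11, adjusted p = 0.0609). Among the 23 units of GAPDH ratio up to 2, HOXB2 had 1.34 ± 0.37 (adjusted p = 0.0733) and HOXB5 0.54 ± 0.12 (adjusted p = 0.03). With the erythroid score as a covariate, both passed, at 1.13 ± 0.26 and 0.51 ± 0.13 (adjusted p = 0.0104 and 0.0213).

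**Figure D4:**
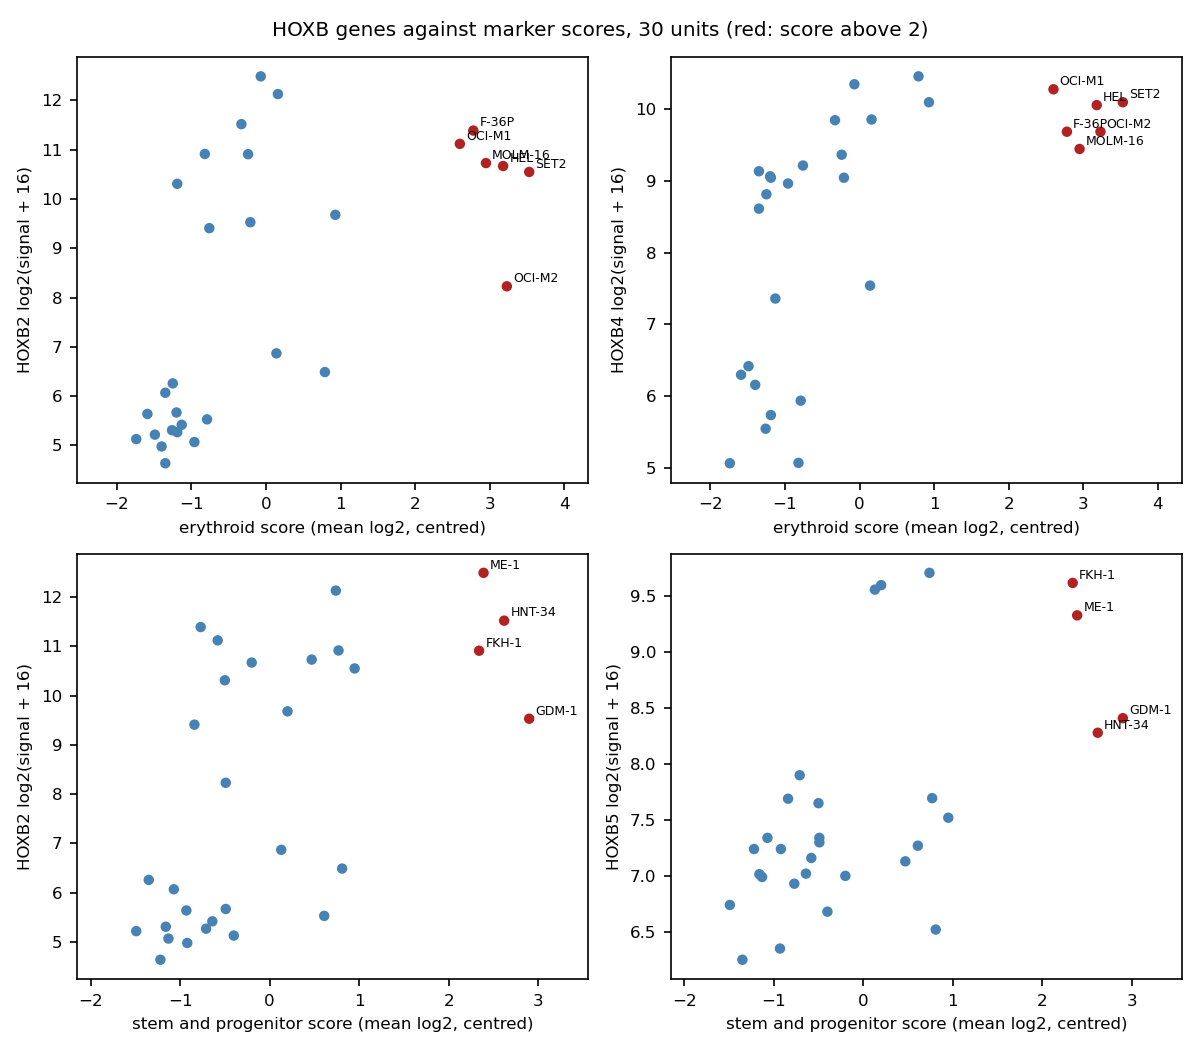
Log2(signal + 16) of HOXB2, HOXB4 and HOXB5 against the erythroid score (upper panels) or the stem and progenitor score (lower panels), each the mean centred log2 level of a marker list, for 30 units; red points, named, have scores above 2. The 6 lines of high erythroid score have HOXB4 levels from 9.44 to 10.27, and low-score lines spread over both high and low levels.

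With MEIS1, the HOX cofactor gene, no member passed. All 8 slopes were positive, where 59.5% of those of all genes tested were, and the median was 0.32 against 0.02. An unadjusted p under 0.05 in limma was found for 6 members and for 1686 genes (10.9%). After adjustment 0 of 15454 genes passed (0%). HOXB5 had a slope of 0.24 ± 0.06 and HOXB2 one of 0.54 ± 0.17, each with a limma adjusted p of 0.362.

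PIM1, PIM2 and PIM3 are the kinases that PIM inhibitors block, and the members were set against the level of each. With PIM1, 0 of 8 passed in limma, where 0.00647% of 15454 genes did. No member had an unadjusted p under 0.05, where 7.12% of all genes did. With PIM2, 0 of 8 passed, where 1.48% did, while 7 slopes were positive and 4 had an unadjusted p under 0.05, against 45.2% and 19.4% of all genes. The share of all genes rests on single lines, since 229 genes passed, but 0 without OCI-M1 and 404 without KMOE-2. HOXB7, at 0.86 ± 0.27, and HOXB9, at 1.04 ± 0.33, came closest (limma adjusted p = 0.093 and 0.0946). HOXB7 passed with quantile normalization, and both passed with arrays centred on their medians (adjusted p = 0.0154 and 0.0288), where 4055 genes passed against 229, or without KMOE-2 (0.0316 and 0.0206). They came ahead of HOXB4 at 0.80 ± 0.34 (0.194) and HOXB2 at 1.08 ± 0.53 (0.253). On its other probe set HOXB9 had a slope of only 0.44 (limma adjusted p = 0.332). On its other probe sets HOXB7 had 1.22 (0.0658) and 0.72 (0.0839).

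The PIM2 slopes of 2 members changed with the erythroid score. With it as a covariate, the slope on PIM2 was -0.15 ± 0.58 for HOXB2 and 0.04 ± 0.38 for HOXB4, while it was 0.75 ± 0.35 for HOXB7 and 0.76 ± 0.42 for HOXB9. With PIM3, 0 of 8 passed, where 0.569% did, and 2 had an unadjusted p under 0.05, where 18.4% of all genes did, HOXB2 at -1.81 ± 0.78 and HOXB9 at -1.20 ± 0.53 (limma adjusted p = 0.206 and 0.219).

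**Figure D5:**
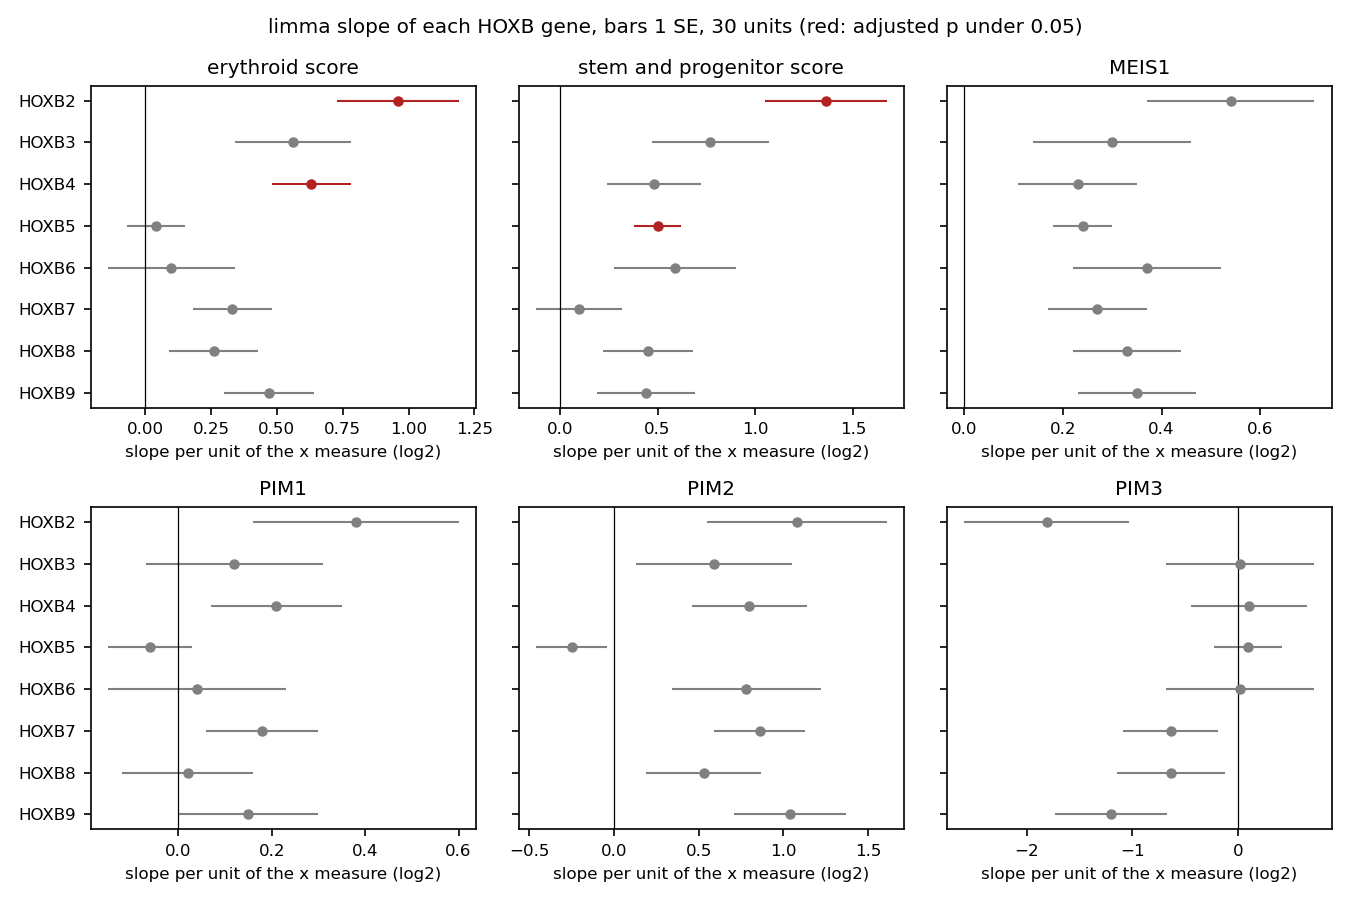
The limma slope of each HOXB gene, in log2 per unit of the measure named above each panel, with bars of 1 SE, over 30 units; red points have an adjusted p under 0.05. HOXB2 and HOXB4 are red for the erythroid score, HOXB2 and HOXB5 for the stem and progenitor score, and no gene is red for MEIS1, PIM1, PIM2 or PIM3.

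The 4 lines with an added cytokine could not be told from the 23 units with none named at the spread between lines. HOXB3 averaged 9.44 ± 2.32 with a cytokine and 9.43 ± 2.22 without (SD, n = 4 and 23), and HOXB8 averaged 5.57 ± 1.04 and 6.35 ± 1.85. In limma 0 of 8 members and 0 of 15455 genes (0%) passed, no member and 878 genes had an unadjusted p under 0.05. The SE of the HOXB3 difference was 1.13 on the log2 scale.

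Genes whose level was most like each member's, by Pearson's r over 30 units among tested genes outside the cluster's HOXB genes, came from several settings. For HOXB2 they were ARHGAP22 (0.79), the blood transcription factor gene TAL1 (0.78) and the platelet integrin gene ITGA2B (0.78). For HOXB3 they were DAPK1, MAP4K3-DT and TSPAN4 (0.68 to 0.69), and for HOXB4 ICAM5 (0.70), the erythroid factor gene GATA1 (0.69) and DAPK1 (0.67). TAL1 and GATA1 are also on the erythroid list. For HOXB5 they were PLEK2 (0.84), XAGE-4 and NCR2, and for HOXB6 MIR10A (0.67), itself in the cluster, C3orf80 and DOCK1. HOXB7 had BATF2 (0.68), PCDHB2 and DYNC2LI1, HOXB8 had DOCK1 (0.71), ZDHHC15 and SGPP2, and HOXB9 had ZDHHC15 (0.74), BATF2 and FAM81B.

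Regulators and relatives of the cluster were described from lists. The share to set beside the counts below is the 10.3% of all 15439 genes tested that passed with the erythroid score. The HOX chromatin regulators were not above this share. With the erythroid score, 1 of 25 tested HOX chromatin regulators rose, ASH2L (0.27 ± 0.07), a subunit of histone methyltransferase complexes, and 1 fell, MLLT1, a fusion partner of KMT2A (-0.20 ± 0.06; limma adjusted p = 0.00522 and 0.0281). Of 6 tested CDX and retinoid genes, CYP26A1, which breaks down retinoic acid, rose (0.36 ± 0.11) and the receptor genes RARA (-0.22 ± 0.06) and RXRA (-0.55 ± 0.17) fell. HOXB-AS1, on its brighter probe set, rose too, at 0.35 ± 0.12 (limma adjusted p = 0.0456). Of the HOXC, HOXD and TALE cofactor genes tested (7, 5 and 9 genes), 0 passed with this score. Only 1 of 11 HOXA genes, HOXA2, had a probe set of its own, so that cluster was not analysed here.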

How the data were processed

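Total RNA of 32 AML cell lines was measured on Affymetrix arrays of 54675 probe sets, 1 array each. The authors deposited 1 linear intensity value per probe set, from Affymetrix Expression Console, per the submitters' processing notes; version and summarization are not given in the sources used here. The mean after trimming 2% at each end was 500 to 500.1 on every array. Values were taken as log2(signal + 16) with no further scaling. A gene was tested if its probe set exceeded 6.73, the median log2 level across probe sets and arrays, in at least 3 units, which left 15455 genes.

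Models used limma 3.58.1 in R 4.3.3 (lmFit, then eBayes with a trend), two-sided, with Benjamini-Hochberg adjustment over all genes tested and 0.05 as the threshold; the scripts were tested on simulated data. A score is the mean over a marker list of each gene's centred log2 level, and list genes were left out of the genes tested. The gene used as the measure was left out too. The number of arrays limits the precision, and p-values measure the spread between these lines. The named genes were the 8 members, the 3 genes most like each, the 5 nearest tested genes on each side, and up to 3 passing genes per list; HOXB1, HOXB13, the antisense genes and MIR10A were named as parts of the cluster. Names and gene order came from RefSeq's table for GRCh38.p14. The members and lists were chosen with earlier results of these data known. KG-1A was taken to be the line that the growth protocol writes as KG1?. A planned comparison with HOXA9 was not made, because no probe set had that single symbol here. Alternatives tried were 2 normalizations, other pseudocounts, no filter, all 32 lines as units, RNA quality, bright arrays, the erythroid score as a covariate, other probe sets and each unit left out.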

Additional observations from a re-analysis of the deposited data

Results flagged for a closer look

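Among the 4 lines grown with an added cytokine, OCI-AML2 stood far below the other 3 for both HOXB3, at a log2 level of 5.98, and HOXB4, at 5.74. F-36P, OCI-AML3 and OCI-AML5 lay between 10.45 and 10.85 for HOXB3 and between 9.06 and 9.68 for HOXB4. The gap to the nearest line was 0.917 and 0.844 of the whole range, above Dixon's critical value for 4 values. Chance exceeds it in about 1 of 20 groups drawn from 1 normal population, which HOXB3 levels, with 10 of 32 lines below a wide gap, do not resemble. In all, 16 such values were examined (8 genes in 2 groups), and HOXB3 and HOXB4 go together (r = 0.89). Of the 4 lines, OCI-AML2 was also the one in which no member reached 4-fold above the array median.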

How the results depend on the processing

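Of 97 alternatives over the 7 counts of members passing, 90 left the count as it was and no slope that passed changed sign. Many had little room to change it. PIM1, MEIS1 and the added cytokine gave 14 alternatives each, and 1, 0 and 0 of all genes passed there. The alternatives with other probe sets could not alter HOXB2 or HOXB4, which had 1 probe set each. With PIM2, the 0 members became 1 with quantile normalization (HOXB7) and 2 with median centring (HOXB7 and HOXB9), while all genes passing were 229, 1725 and 4055. Median centring moved the median PIM2 slope of all genes to 0.14, against -0.04 without it, with 3497 genes rising and 558 falling, against 112 and 117. For PIM3 that split was 44 and 1, against 43 and 45, with the same median of 0.14, against 0.05. For PIM2, leaving out 1 unit gave 0 to 2 members, with 2 without KMOE-2, and all genes passing were 0 without OCI-M1, 404 without KMOE-2 and 0 with the erythroid score as a covariate. With the erythroid score the 2 members became 4 without the 6 units of score above 2 (chosen after seeing the data). All genes passing were then 2314, against 1596, and HOXB2 and HOXB4 passed in all 30 leave-outs. With the stem and progenitor score the 2 members became 1 with quantile normalization, 1 with median centring, 1 without arrays of GAPDH ratio above 2, and 0 without the 4 units of score above 2; leaving out 1 unit gave 1 to 2. All genes passing there were 401, but 679 without NOMO-1 and GF-D8, 205 without the high GAPDH arrays and 180 without the 4 units. For PIM3, 88 genes passed, but 1035 with quantile normalization, 45 with median centring, 22 with no filter, 544 with 32 lines, 3 without NB-4, 403 without NOMO-1 and 0 without the high GAPDH arrays. The other probe sets of members and the threshold for an above-median level moved counts of lines. The cause of these shifts was not tested. No paired analysis was possible because the labels give no shared replicate numbers. Low signals near the pseudocount limit all statements about lines without HOXB signal.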

Other observations

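Genes of the marker lists that passed with the scores were read beside the members. With the stem and progenitor score they were few, where 2.6% of all genes passed. They were 1 of 16 erythroid, 2 of 13 megakaryocyte and 1 of 10 monocyte genes. In the granule list 1 of 10 passed, and in the epithelial and stromal list 1 of 8. With the stem and progenitor score, the erythroid factor gene TAL1 (1.59 ± 0.31, limma adjusted p = 0.00297), the platelet genes VWF (1.17 ± 0.14) and ITGA2B (1.39 ± 0.33) and the endothelial cadherin gene CDH5 (0.72 ± 0.15) rose, and PRTN3 (-1.99 ± 0.44) and LYZ (-1.30 ± 0.35) fell. With the erythroid score, 8 of 13 megakaryocyte genes rose and 7 of 10 granule genes fell, where 10.3% of all genes passed. Among them, the platelet genes TUBB1 (0.76 ± 0.10) and ITGA2B (1.28 ± 0.20) rose with HOXB2 and HOXB4. The granule genes RNASE2 (-1.62 ± 0.21) and AZU1 (-1.69 ± 0.25) fell. Their part in the HOXB slopes was not tested.

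Other probe sets of a member gave different counts of lines. For HOXB3, 24 lines lay above the array median on the probe set used and 13 on the other, with r = 0.74 between them. For HOXB6 the counts were 13 and 2 (r = 0.51), and for HOXB8 they were 9 and 0 (r = 0.45). For HOXB7 the r with the 2 other probe sets was 0.92 and 0.84, for HOXB9 it was 0.87 and for HOXB5 it was 0.85. HOXB2 and HOXB4 had 1 probe set each. At least 4-fold above the array median were 22 lines for HOXB3 on the probe set used and 0 on the other, and the counts were 7 and 1 for HOXB6 and 2 and 0 for HOXB8. For HOXB7 they were 7 on the one used and 6 and 1 on the others, for HOXB5 3 and 3, and for HOXB9 6 and 4.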
